A study of Arabidopsis thaliana with 12 samples.

Results

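Knockdown of the histone variant H3.3 was compared with wild type in Arabidopsis thaliana seedlings at 27 °C. The comparison takes 6 of the 12 libraries of the series, 3 of the wild type Col and 3 of the line titled h3.3kd, whose genotype field reads h3.3kd-1. All came from seedlings 7 days old that grew at 21 °C in short days and then spent 12 h at 27 °C. The other 6 libraries, 3 of h2a.z and 3 of h3.3kd;h2a.z, carry a loss of the variant H2A.Z. They served to estimate the spread and to ask whether H3.3 effects recurred in a second background. Of 23387 genes in the deposited table, the 18847 with at least 1 TPM (a length-scaled share of all transcripts of a library) in at least 3 of the 6 Col and h3.3kd libraries were tested. How the knockdown was built, which cells it acts in and whether the line descends from 1 plant are not stated in the labels. All plants were moved to the warmth, so every difference is one between genotypes there.

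H3.3 is the histone H3 that is put into chromatin outside DNA replication, above all in transcribed genes, where it takes the place of H3.1. Chaperones such as HIRA carry it, and in Arabidopsis the genes HTR4, HTR5 and HTR8 encode it. H3.3 is known to help keep the linker histone H1 out of genes, and H2A.Z and H3.3 are both tied to the growth of seedlings in warmth, called thermomorphogenesis. Elongation of the stem in warmth runs through PIF transcription factors, auxin, gibberellin, brassinosteroids and loosening of the cell wall.

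Mean Pearson correlation of log2(TPM + 1) was 0.97 within Col, 0.96 within h3.3kd and 0.936 between them. The second h3.3kd library deviated most from its group, with a root mean square deviation of 0.405 on the log2 scale against 0.217 to 0.325 in the other 5. The libraries with H2A.Z loss varied less, at 0.172 to 0.22. Standard errors and adjusted p-values from all 12 libraries therefore rest on a smaller spread than that of the 6 compared. In h3.3kd 1 the 10 strongest genes held 12.6% of all TPM. TPM values keep no read depth, so the depth behind them is unknown. Root and leaf markers were present in every library, as whole seedlings would give. The floral markers AP1, AP3, PI, AG and SEP3 were at 1.13 TPM or less in all 6 libraries. Fold changes are differences of log2(TPM + 1), given ± standard error, and they understate the change of low genes. Whether libraries of 1 genotype came from separate cultures is not stated, so p-values reflect the spread between these libraries alone, which may be technical.

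The targeted genes were low in every knockdown library. HTR8 (AT5G10980) stood at 297, 200.4 and 222 TPM in Col and 9.28, 12.1 and 11.9 TPM in h3.3kd (log2 fold change -4.31 ± 0.16, adjusted p = 1.2e-09). HTR4 (AT4G40030) stood at 449, 417 and 479 TPM in Col and 65.6, 29.6 and 70.1 TPM in h3.3kd (-3.09 ± 0.24, adjusted p = 3.0e-06). HTR5 (AT4G40040) stood at 544, 424 and 467 TPM in Col and 77.6, 64.2 and 96.5 TPM in h3.3kd (-2.59 ± 0.17, adjusted p = 1.2e-06). For none of the 3 genes did a knockdown library come near the lowest wild-type one, and HTR5 kept the most transcript. Of the 5 genes for the replicative histone H3.1, 0 rose and 0 fell. Their median log2 fold change was 0.02. Of 18 genes that handle H3.3 or H2A.Z, 1 rose and 0 fell. It was NRP1 (AT1G74560), a nucleosome assembly protein (log2 fold change 0.63 ± 0.15, adjusted p = 0.011), whose call ended at 0.081 in the fit of the 6 libraries alone.

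Across all tested genes, 1079 were called higher in h3.3kd, 5.73%, and 2318 lower, 12.3%, by limma at an adjusted p under 0.05. The fit of all 12 libraries gave these counts. Together these were 18.0% of genes. Counts of gene groups below are to be read against the 5.73% and 12.3%. Fitted on the 6 libraries alone, 363 were higher (1.93%) and 920 lower (4.88%), together 6.81%. Called in both fits were 354 higher (1.88%) and 912 lower (4.84%). Of all calls, 31.8% were higher. That split depends on scaling, with 48.8% higher after median-ratio rescaling and 53.2% after quantile normalization, which moved the median of all genes from -0.12 to -0.02 and 0.02. Array weights, which let noisier libraries count less, gave 1685 higher and 3707 lower. Leaving out h3.3kd 3 gave 718 higher, and leaving out Col 1 gave 1461 lower. A test against a minimum of 1.5-fold left 83 higher and 267 lower. Groups did not overlap for 28.3% of tested genes, 9.14% with h3.3kd above and 19.2% with h3.3kd below. In whole seedlings, fewer cells of a type and less RNA per cell cannot be told apart.

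Falls were larger than rises. Called genes that fell had a median log2 fold change of -0.94, and 44.1% of them changed at least 2-fold. Those that rose had a median of 0.72, and 26.4% changed at least 2-fold. At least 4-fold changes numbered 121 down and 31 up, and at least 8-fold changes 15 and 8. The balance shifted with expression level. Below a mean of 2 TPM, 3.90% of genes were higher and 17.4% lower, and from 2 to 10 TPM 3.36% and 16.3%. From 10 to 50 TPM 5.01% were higher. At 50 TPM or more they were 11.4% and 9.88%, or 423 and 367 genes, and after median-ratio rescaling 654 and 230.

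**Figure D1:**
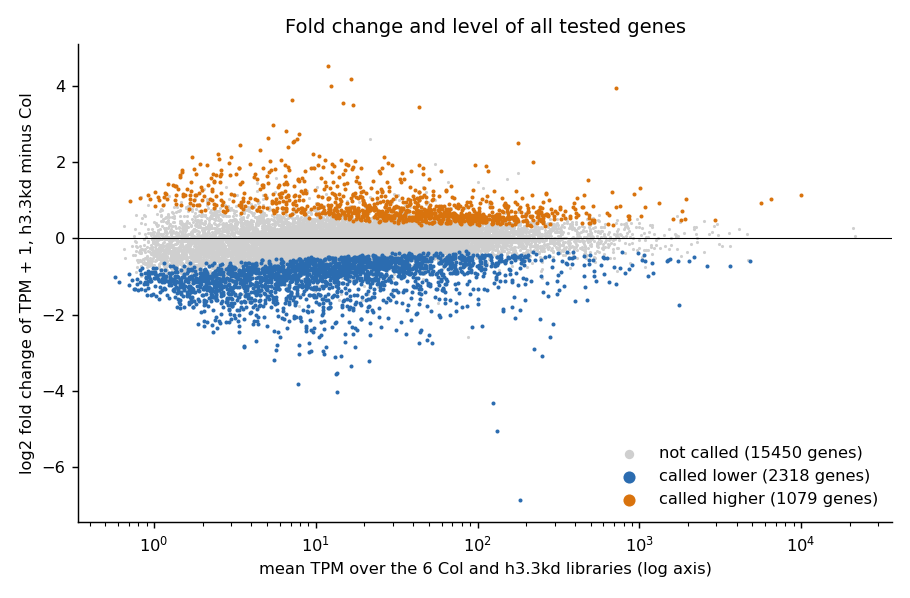
Log2 fold change (h3.3kd minus Col, y axis) against mean TPM over the 6 libraries (log axis) for each of 18847 tested genes, with the 1079 called higher in orange, the 2318 called lower in blue and the rest in grey. Blue points outnumber orange ones at low levels, while at 50 TPM or more the shares in TPM without rescaling were 11.4% higher and 9.88% lower.

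Seed storage genes were among the largest rises. Of 10 listed genes 5 were tested, and each of the 5 met the filter of 1 TPM only through its h3.3kd libraries, so that their number says nothing of the list. The 5 not tested reached at most 0.47 TPM in any Col library and 8.13 TPM in any h3.3kd library. These proteins fill the embryo before it dries and are normally used up in germination. CRC (AT4G28520), a cruciferin, stood at 0.0962, 0 and 0 TPM in Col and 23.5, 15 and 32.7 TPM in h3.3kd (log2 fold change 4.52 ± 0.43, adjusted p = 1.3e-05). CRA1 (AT5G44120), of the same protein family, stood at 0.154, 0.294 and 1.13 TPM in Col and 38.7, 16.7 and 17.6 TPM in h3.3kd (4.0 ± 0.47, adjusted p = 8.9e-05). All h3.3kd libraries lay above all Col libraries for both. SESA5 (AT5G54740), a storage albumin, stood at 0.260, 0 and 0 TPM in Col and 1.97, 44.9 and 51.4 TPM in h3.3kd (4.16 ± 0.89, adjusted p = 0.0059). It was uneven, with h3.3kd 1 closest to Col and the other libraries far above. PAP85 (AT3G22640), a vicilin-like cupin, stood at 0.146, 0 and 0.630 TPM in Col and 2.67, 14.4 and 14.9 TPM in h3.3kd (2.97 ± 0.48, adjusted p = 9.6e-04), and SESA2 (AT4G27150) was also higher (2.08 ± 0.68, adjusted p = 0.049), a call that ended in 12 of the other settings. The filter to at least 1 TPM in all 6 libraries leaves none of these genes to test, because Col was near 0.

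The 250 bases before the annotated start of the storage genes with the largest rises are shown because such promoters carry the elements through which seed regulators act. ABI3-type B3 factors bind the RY element, searched as CATGCA, and bZIP factors of the abscisic acid pathway bind elements with the core ACGTG. Both were searched on both strands and are in capitals. Sequences are from RefSeq, build TAIR10.1, and run 5′ to 3′ on the gene's strand, for CRC at chr4:14087306-14087555 (plus strand), SESA5 at chr5:22239188-22239437 (minus), CRA1 at chr5:17758337-17758586 (minus) and PAP85 at chr3:8013942-8014191 (minus).
CRC: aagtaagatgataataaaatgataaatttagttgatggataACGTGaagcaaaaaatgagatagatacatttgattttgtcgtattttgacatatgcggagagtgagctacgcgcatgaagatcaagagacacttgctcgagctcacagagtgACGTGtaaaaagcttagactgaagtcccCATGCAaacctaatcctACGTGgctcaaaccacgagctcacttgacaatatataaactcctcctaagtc
SESA5: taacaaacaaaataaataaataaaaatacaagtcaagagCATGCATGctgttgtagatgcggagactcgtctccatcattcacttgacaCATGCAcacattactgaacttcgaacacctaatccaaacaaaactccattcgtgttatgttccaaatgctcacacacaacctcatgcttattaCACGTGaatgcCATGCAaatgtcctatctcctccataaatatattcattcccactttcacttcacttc
CRA1: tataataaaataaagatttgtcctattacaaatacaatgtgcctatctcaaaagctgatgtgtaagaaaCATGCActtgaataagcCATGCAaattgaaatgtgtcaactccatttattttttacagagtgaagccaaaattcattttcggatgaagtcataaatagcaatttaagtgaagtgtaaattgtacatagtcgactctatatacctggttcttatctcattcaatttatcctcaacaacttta
PAP85: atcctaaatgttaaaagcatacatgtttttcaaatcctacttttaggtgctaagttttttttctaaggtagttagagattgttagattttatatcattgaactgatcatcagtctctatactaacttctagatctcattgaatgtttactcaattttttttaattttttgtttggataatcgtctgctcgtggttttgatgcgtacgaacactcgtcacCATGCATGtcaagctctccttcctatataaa
CATGCA occurred 1 time in the CRC promoter, 4 times in SESA5 and 2 times each in CRA1 and PAP85. ACGTG occurred 3 times in CRC, 2 times in SESA5 and not in the other windows. The 5 tested storage genes each held at least 1 CATGCA, as did 7.63% of the promoters of all tested nuclear genes. Of genes called higher, 8.81% held it, and of those at least 2-fold higher 17.9%. It was held by 10.4% of genes called lower and 12.5% of those at least 2-fold lower, so these shares were above that of all genes in both directions. ACGTG was held by 32.4% of promoters of genes called higher, 39.7% of those at least 2-fold higher, 21.7% of genes called lower and 23.6% of all. The G-box CACGTG, which contains ACGTG, was held by 13.9% of genes called higher, 6.64% of those called lower and 7.53% of all. The telobox AAACCCTA was held by 2.78%, 2.42% and 3.55%. A match describes the letters in the window, not binding.

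Other late seed genes rose with them. ECP63 (AT2G36640), a late embryogenesis abundant (LEA) protein that protects cells from drying, stood at 2.77, 2.07 and 0.780 TPM in Col and 51.8, 19.7 and 25.5 TPM in h3.3kd (log2 fold change 3.49 ± 0.48, adjusted p = 2.7e-04). AT1G04560, which encodes an AWPM-19-like membrane protein, stood at 5.04, 6.76 and 7.63 TPM in Col and 84, 70.0 and 86.2 TPM in h3.3kd (3.45 ± 0.44, adjusted p = 1.7e-04). Groups did not overlap for either gene, and the Col values of AT1G04560 were a fraction of every h3.3kd value. The vacuolar aquaporin of the seed, BETA-TIP (AT1G17810), stood at 4.04, 3.39 and 4.09 TPM in Col and 20.3, 17.8 and 19.2 TPM in h3.3kd (2.06 ± 0.26, adjusted p = 1.6e-04). The oil body protein OLEO1 (AT4G25140) rose from a low base, 0.282, 0.107 and 0 TPM in Col and 1.69, 1.81 and 4.78 TPM in h3.3kd (1.65 ± 0.34, adjusted p = 0.0048). Of 6 oil body genes tested, 2 were higher and 0 lower, and OLEO1 met the filter only through h3.3kd libraries. The number higher was 1 with no filter, with array weights and without Col 2, h3.3kd 2 or h3.3kd 3. It was also 1 among genes at 1 TPM or more in all 6 libraries and among those with a mean of 5 TPM or more. Of 31 genes annotated as LEA proteins by product name, a list that does not hold ECP63, 4 were higher and 3 lower (median 0.55). This list is sensitive to the fit, with a count of higher genes of 2 with a pseudocount of 0.1, among genes with a mean of 5 TPM or more and without Col 3, h2a.z 3 or h3.3kd;h2a.z 3, 8 in the fit of the 6 libraries alone, 14 with the replicate block in those 6, 7 with array weights and without h2a.z 1 and 9 without h2a.z 2. AT5G44310 (1.82) and AT5G66780 (1.78) were among those that rose, and AT4G27400 (-1.24) and AT2G46140 (-1.12) among those that fell.

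The regulators of seed maturation mostly did not pass the test. Of 8 tested, 1 rose, ABI5 (AT2G36270), a bZIP factor that holds back seedling growth when abscisic acid (ABA) is present. It stood at 7.50, 3.36 and 7.94 TPM in Col and 15.7, 15.2 and 20.2 TPM in h3.3kd (log2 fold change 1.37 ± 0.26, adjusted p = 0.0024), with every h3.3kd library above every Col library. ABI3 (AT3G24650), the B3 factor that drives storage genes, stood at 3.05, 2.97 and 2.93 TPM in Col and 2.41, 6.21 and 2.54 TPM in h3.3kd (0.15 ± 0.31, adjusted p = 0.78), and only h3.3kd 2 was above the Col range. LEC2, another activator of embryo genes, was listed at 0 in all 6 libraries. VAL1 (AT2G30470), a B3 factor that silences the seed program, did not pass (0.32 ± 0.16, adjusted p = 0.18).

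Genes of the ABA signalling core were higher. Of 13 tested phosphatases, kinases and ABF factors of the core pathway, 8 rose and 0 fell, with a median of 0.52. Of the 8, 1, HAI2, met the filter only through h3.3kd libraries. 6 of these 8 were type 2C phosphatases, which switch the kinases off and are themselves induced by ABA. HAI2 (AT1G07430) stood at 0.777, 0.415 and 1.24 TPM in Col and 6.23, 2.11 and 6.92 TPM in h3.3kd (log2 fold change 1.66 ± 0.34, adjusted p = 0.0044). HAI1 (AT5G59220) stood at 6.17, 5.35 and 8.39 TPM in Col and 16.2, 11.4 and 33.1 TPM in h3.3kd (1.36 ± 0.29, adjusted p = 0.0059), and ABI2 (AT5G57050) at 8.25, 8.01 and 10.6 TPM in Col and 16.3, 19.3 and 22.1 TPM in h3.3kd (1.03 ± 0.18, adjusted p = 0.0019). No h3.3kd library overlapped Col for these genes, and h3.3kd 3 was the highest for all of them. PP2CA (AT3G11410) rose less (0.74 ± 0.15, adjusted p = 0.0037). The number of higher members was 4 in the fit of the 6 libraries alone and without Col 2 and 5 without h3.3kd 3.

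Of 16 drought and cold genes, 8 rose and 1 fell (median 0.73). Of the 8, 1, GOLS2, met the filter only through h3.3kd libraries. RD29B (AT5G52300), a classical ABA-induced gene, stood at 49, 49.7 and 43.1 TPM in Col and 177, 159.8 and 200.4 TPM in h3.3kd (log2 fold change 1.90 ± 0.21, adjusted p = 4.7e-05). P5CS1 (AT2G39800), which makes the osmolyte proline, stood at 33.4, 31.8 and 49.2 TPM in Col and 81.7, 102 and 87.7 TPM in h3.3kd (1.24 ± 0.17, adjusted p = 2.3e-04), and GOLS2 (AT1G56600), which makes galactinol for raffinose sugars, at 1.03, 0.764 and 0.870 TPM in Col and 3.45, 2.80 and 4.87 TPM in h3.3kd (1.30 ± 0.25, adjusted p = 0.003). The h3.3kd libraries were above Col in each case. The number higher was 5 among genes with a mean of 5 TPM or more and without h3.3kd 3 and 13 without both Col 1 and h3.3kd 2. The stress factor ATAF1 (AT1G01720) of the NAC family stood at 72, 59.1 and 98.7 TPM in Col and 135, 145 and 165 TPM in h3.3kd (0.97 ± 0.16, adjusted p = 0.0013).

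**Figure D2:**
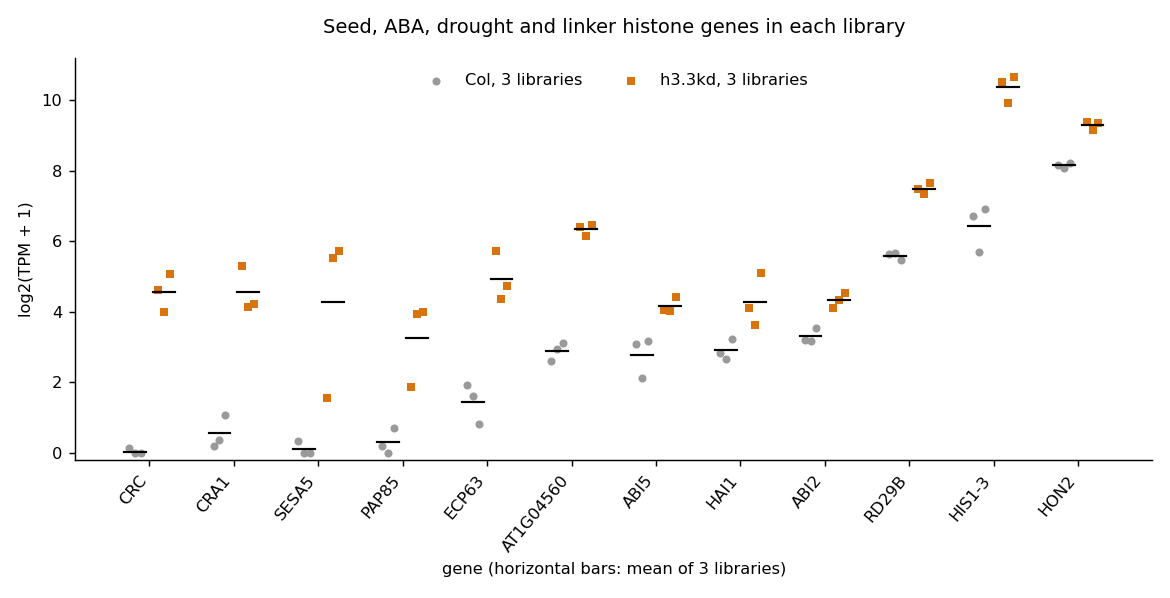
Log2(TPM + 1) in each of the 6 libraries for 12 genes that rose, with Col in grey and h3.3kd in orange, and bars at the group means. CRC and CRA1 were at or near 0 in Col, SESA5 was low in 1 h3.3kd library, and HIS1-3 lay above every Col library by more than 3 log2 units.

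Histone genes other than those for H3 also changed. The linker histone H1 sits on the DNA between nucleosomes. All 3 of its tested genes were higher, and HIS1-3 (AT2G18050), known from drought, stood at 103, 50.5 and 119 TPM in Col and 1461, 966 and 1598 TPM in h3.3kd (log2 fold change 3.93 ± 0.28, adjusted p = 1.9e-06). HON2 (AT2G30620), a main form of H1, stood at 287, 269.7 and 298 TPM in Col and 658, 562 and 651 TPM in h3.3kd (1.13 ± 0.11, adjusted p = 1.6e-05), and every h3.3kd library lay above the Col libraries by far more than their spread. HON1 (AT1G06760), the other main form, rose little (0.39 ± 0.12, adjusted p = 0.032), a call that ended in 10 of the other settings.

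Of 8 tested H4 genes, 5 rose and 0 fell, with a median of 1.06. Without Col 3 or without h3.3kd 3, 3 rose, and in the fit of the 6 libraries alone 2 rose. AT3G53730 changed most, at 94.1, 85.6 and 78.2 TPM in Col and 401, 248 and 414 TPM in h3.3kd (log2 fold change 2.0 ± 0.17, adjusted p = 6.5e-06), with no overlap. AT3G45930 stood at 79.9, 42.7 and 42.6 TPM in Col and 154, 87 and 155 TPM in h3.3kd (1.26 ± 0.25, adjusted p = 0.0036). Summed over the 8 genes, H4 transcripts stood at 1049, 637 and 549 TPM in Col and 2136, 1044 and 1871 TPM in h3.3kd, so that Col 1 overlapped h3.3kd 2. Plant H4 genes encode the same protein from similar sequences, and the labels do not say how reads shared by copies were counted. Single H4 genes are therefore less certain than their sum.

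Of 9 H2B genes, 4 rose and 0 fell (median 0.33), but 2 rose without Col 3, and 2 rose and 1 fell without h3.3kd 3. AT1G08170, an H2B known from seeds and sperm, stood at 0.230, 1.05 and 0.458 TPM in Col and 4.57, 16.2 and 7.91 TPM in h3.3kd (log2 fold change 2.62 ± 0.36, adjusted p = 2.9e-04), and AT3G53650 at 5.31, 5.55 and 4.84 TPM in Col and 14.5, 22.7 and 23 TPM in h3.3kd (1.73 ± 0.18, adjusted p = 3.5e-05). Neither overlapped between genotypes, and AT1G08170 met the filter only through h3.3kd libraries. Of 9 H2A genes other than H2A.Z, 2 rose and 2 fell (median -0.11). HTA4 (AT4G13570) stood at 1.91, 4.79 and 4.39 TPM in Col and 11.4, 23.1 and 13.3 TPM in h3.3kd (1.85 ± 0.32, adjusted p = 0.0015) and HTA7 (AT5G27670), an H2A of the heterochromatin class, at 147, 89.2 and 96.2 TPM in Col and 218, 154 and 219.9 TPM in h3.3kd (0.84 ± 0.18, adjusted p = 0.0057). HTA6 (AT5G59870), of that class too, went the other way (-0.61 ± 0.15, adjusted p = 0.012), a call that ended at 0.058 after median-ratio rescaling, 0.082 in the fit of the 6 libraries alone. Over all 29 core histone genes outside H3.3 and H3.1, 11 rose and 2 fell, and the number higher was 7 in the fit of the 6 libraries alone and without Col 3 or h3.3kd 3. DNA replication genes did not rise with them, since of 19 tested 0 rose and 3 fell, among the latter the clamp PCNA1 (AT1G07370) (-1.16 ± 0.19, adjusted p = 0.0011). The number lower was 1 after quantile normalization, in the fit of the 6 libraries alone, with the replicate block in those 6 and without Col 2 or h3.3kd 1, 9 with array weights and 10 without both Col 1 and h3.3kd 2 and without h3.3kd 2.

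The synthesis of aliphatic glucosinolates, sulfur-rich defence compounds made from methionine, was lower from the regulators on. Of 19 tested genes of the pathway, 13 fell and 0 rose (median -1.14). Of the 13, 9 met the filter only through Col libraries, being under 1 TPM in at least 1 h3.3kd library, so that the count is not independent of the filter. Of 10 genes of the indole branch, made from tryptophan, 0 rose and 0 fell (median 0.07). MYB28 (AT5G61420), the main activator of the aliphatic genes, stood at 33.9, 27.1 and 20.9 TPM in Col and 2.99, 3.98 and 2.69 TPM in h3.3kd (log2 fold change -2.73 ± 0.20, adjusted p = 1.9e-06). Its partner MYB29 (AT5G07690) was low in Col, at 2.08, 1.16 and 1.35 TPM, and at 0 in all of h3.3kd (adjusted p = 0.0021).

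The steps differed along the pathway. In chain elongation, MAM1 (AT5G23010), which adds carbon to methionine, stood at 15.8, 11.8 and 5.74 TPM in Col and 1.92, 1.55 and 1.37 TPM in h3.3kd (log2 fold change -2.12 ± 0.32, adjusted p = 6.2e-04). IPMI2 (AT2G43100), an isomerase, stood at 15.3, 23.5 and 12.7 TPM in Col and 2.39, 0.102 and 2.15 TPM in h3.3kd (-2.95 ± 0.37, adjusted p = 1.2e-04), and IMD1 (AT5G14200), a dehydrogenase, at 15.8, 17.5 and 12.3 TPM in Col and 0.985, 3.48 and 1.98 TPM in h3.3kd (-2.43 ± 0.28, adjusted p = 7.0e-05). Genotypes did not overlap for these genes. In core synthesis, CYP79F1 (AT1G16410), which starts it, fell (-1.36 ± 0.25, adjusted p = 0.0021), and CYP83A1 (AT4G13770), the next P450, stood at 28.5, 34.7 and 16.3 TPM in Col and 0.663, 0.611 and 0.591 TPM in h3.3kd (-4.02 ± 0.29, adjusted p = 1.9e-06), the largest fall of the list. Steps shared with the indole branch did not pass, with the lyase SUR1 (AT2G20610) at -0.34 ± 0.15, adjusted p = 0.12 and the glucosyltransferase UGT74B1 (AT1G24100) at 0.08 ± 0.14, adjusted p = 0.75. Nor did the last aliphatic step, with the sulfotransferase SOT17 (AT1G18590) at 0.08 ± 0.17, adjusted p = 0.8. The number lower was 4 among genes at 1 TPM or more in all 6 libraries, 6 among genes with a mean of 5 TPM or more and 8 in the fit of the 6 libraries alone.

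Of 12 genes that break down or move glucosinolates, 4 fell and 0 rose. The number lower was 2 after median-ratio rescaling, in the fit of the 6 libraries alone, with the replicate block in those 6 and without h3.3kd 3 and 7 with array weights and without both Col 1 and h3.3kd 2. The myrosinase TGG2 (AT5G25980) stood at 40.8, 25.5 and 23.9 TPM in Col and 4.06, 6.77 and 4.20 TPM in h3.3kd (log2 fold change -2.36 ± 0.24, adjusted p = 2.3e-05) and ESM1 (AT3G14210), which steers the breakdown products, at 207, 268 and 207 TPM in Col and 122, 129 and 108 TPM in h3.3kd (-0.92 ± 0.16, adjusted p = 0.0014). No library overlapped for either.

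Cell wall genes were lower across several families. Arabinogalactan and fasciclin-like proteins are sugar-coated proteins at the membrane and wall. Of 40 tested, 23 fell, 57.5% against 12.3% of all genes, and 1 rose (median -0.80). FLA13 (AT5G44130) stood at 80.6, 104 and 92.8 TPM in Col and 12.2, 11.9 and 14.7 TPM in h3.3kd (log2 fold change -2.75 ± 0.13, adjusted p = 3.7e-08), AGP12 (AT3G13520) at 617, 298 and 279 TPM in Col and 97.5, 59.2 and 102 TPM in h3.3kd (-2.13 ± 0.27, adjusted p = 1.3e-04) and AGP18 (AT4G37450) at 102, 132 and 104 TPM in Col and 30.9, 31.4 and 39.8 TPM in h3.3kd (-1.70 ± 0.15, adjusted p = 6.8e-06). In each of them the highest h3.3kd library was under the lowest Col one, and Col 1 was far above the other Col libraries for AGP12. In the fit of the 6 libraries alone, 16 were lower.

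Xyloglucan endotransglucosylases (XTHs) cut and rejoin the xyloglucan chains that tether cellulose. Of 24 tested, 11 fell (45.8%) and 2 rose (8.33%). XTH4 (AT2G06850), the most abundant of those that fell, stood at 741, 771 and 640.0 TPM in Col and 228, 224 and 242 TPM in h3.3kd (log2 fold change -1.62 ± 0.12, adjusted p = 2.5e-06). XTH16 (AT3G23730) stood at 117, 110.3 and 98 TPM in Col and 25.9, 20.3 and 34.5 TPM in h3.3kd (-2.0 ± 0.18, adjusted p = 8.6e-06) and XTH17 (AT1G65310) at 18.6, 16.5 and 13.9 TPM in Col and 1.12, 3.45 and 2.59 TPM in h3.3kd (-2.41 ± 0.24, adjusted p = 2.5e-05). The genotypes did not overlap for any of these genes, and XTH17 varied most within h3.3kd relative to its level. XTH25 (AT5G57550) went up, at 5.27, 3.57 and 10.9 TPM in Col and 25.2, 22.1 and 37.2 TPM in h3.3kd (2.03 ± 0.29, adjusted p = 4.1e-04). Of 22 expansins, which loosen walls, 6 fell (27.3%) and 1 rose (4.55%), and EXLB1 (AT4G17030) fell most (-2.38 ± 0.38, adjusted p = 9.2e-04). Lower expansins numbered 3 in the fit of the 6 libraries alone and without Col 1.

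Of 113 extensin, proline-rich and related wall protein genes, 27 fell and 5 rose, with PRP2 (AT2G21140) at 35.4, 54.6 and 27.3 TPM in Col and 1.40, 4.62 and 4.28 TPM in h3.3kd (log2 fold change -3.22 ± 0.30, adjusted p = 1.3e-05). Higher ones numbered 11 after median-ratio rescaling, 9 after quantile normalization, 2 in the fit of the 6 libraries alone and 3 without Col 1, h3.3kd 3, h2a.z 2, h2a.z 3, h3.3kd;h2a.z 1, h3.3kd;h2a.z 2 or h3.3kd;h2a.z 3. Of 53 pectin methylesterases and their inhibitors, which set the stiffness of pectin, 19 fell (35.8%) and 3 rose (5.66%). The number lower was 12 in the fit of the 6 libraries alone. AT2G45220, a pectin methylesterase, stood at 16.8, 13.6 and 20.2 TPM in Col and 2.77, 1.39 and 3.67 TPM in h3.3kd (-2.34 ± 0.29, adjusted p = 1.3e-04). Of 21 cellulose synthase and related genes 2 fell (9.52%, under the 12.3% of all genes) and 1 rose. The number lower was 1 among genes with a mean of 5 TPM or more, with the replicate block in those 6 and without Col 1, Col 2, Col 3, h3.3kd 1 or h3.3kd 3, 0 in the fit of the 6 libraries alone, 4 with no intensity trend, 10 with array weights, 8 without h3.3kd 2 and 7 without both Col 1 and h3.3kd 2.

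Of 47 class III peroxidases, secreted enzymes that cross-link walls and make or use hydrogen peroxide, 23 fell (48.9%) and 5 rose (10.6%), with a median of -0.67. Of the 23, 6 met the filter only through Col libraries, and of the 5, 2 only through h3.3kd libraries. Lower ones numbered 15 in the fit of the 6 libraries alone, and higher ones 3 among genes at 1 TPM or more in all 6 libraries, among genes with a mean of 5 TPM or more, in the fit of the 6 libraries alone and without Col 2, Col 3 or h3.3kd 3. AT5G64120 stood at 127, 132 and 203 TPM in Col and 38.4, 24.3 and 26.3 TPM in h3.3kd (log2 fold change -2.33 ± 0.31, adjusted p = 2.2e-04) and its neighbour AT5G64110 at 23, 37.9 and 27.6 TPM in Col and 3.38, 6.74 and 3.23 TPM in h3.3kd (-2.51 ± 0.30, adjusted p = 9.7e-05). Both were several-fold lower in every knockdown library. The abundant PRXR1 (AT4G21960) rose, at 1004, 1474 and 1352 TPM in Col and 2775, 2452 and 2575 TPM in h3.3kd (1.04 ± 0.16, adjusted p = 5.5e-04).

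Lipid transfer proteins, small secreted carriers of wax, cutin and suberin monomers, had 22 of 52 lower and 5 higher (median -0.70). Of the 5 higher, 2 met the filter only through h3.3kd libraries. AT4G22490 stood at 218, 340.2 and 203 TPM in Col and 7.42, 16.5 and 1.92 TPM in h3.3kd (log2 fold change -5.04 ± 0.45, adjusted p = 9.0e-06), with no knockdown library near the Col range. XYP2 (AT2G13820), a xylogen protein of vessel formation, fell (-2.20 ± 0.23, adjusted p = 3.4e-05). Others rose, such as LTP2 (AT2G38530), a surface protein of the shoot, at 239, 215 and 251 TPM in Col and 908, 398 and 869.7 TPM in h3.3kd (1.53 ± 0.23, adjusted p = 6.3e-04), and the ABA-responsive LTP4 (AT5G59310), at 0.334, 0.382 and 1.22 TPM in Col and 6.01, 6.82 and 24.5 TPM in h3.3kd (2.81 ± 0.45, adjusted p = 8.4e-04). The range of h3.3kd was wide for both, and no library overlapped Col. Of 53 GDSL lipases, 16 fell and 2 rose, among them CDEF1 (AT4G30140), an esterase that can cut cutin (-2.32 ± 0.26, adjusted p = 6.5e-05). The fatty acid elongase KCS1 (AT1G01120) of wax and suberin synthesis stood at 111, 160.3 and 131 TPM in Col and 31.4, 43.2 and 40.2 TPM in h3.3kd (-1.78 ± 0.15, adjusted p = 4.9e-06).

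**Figure D3:**
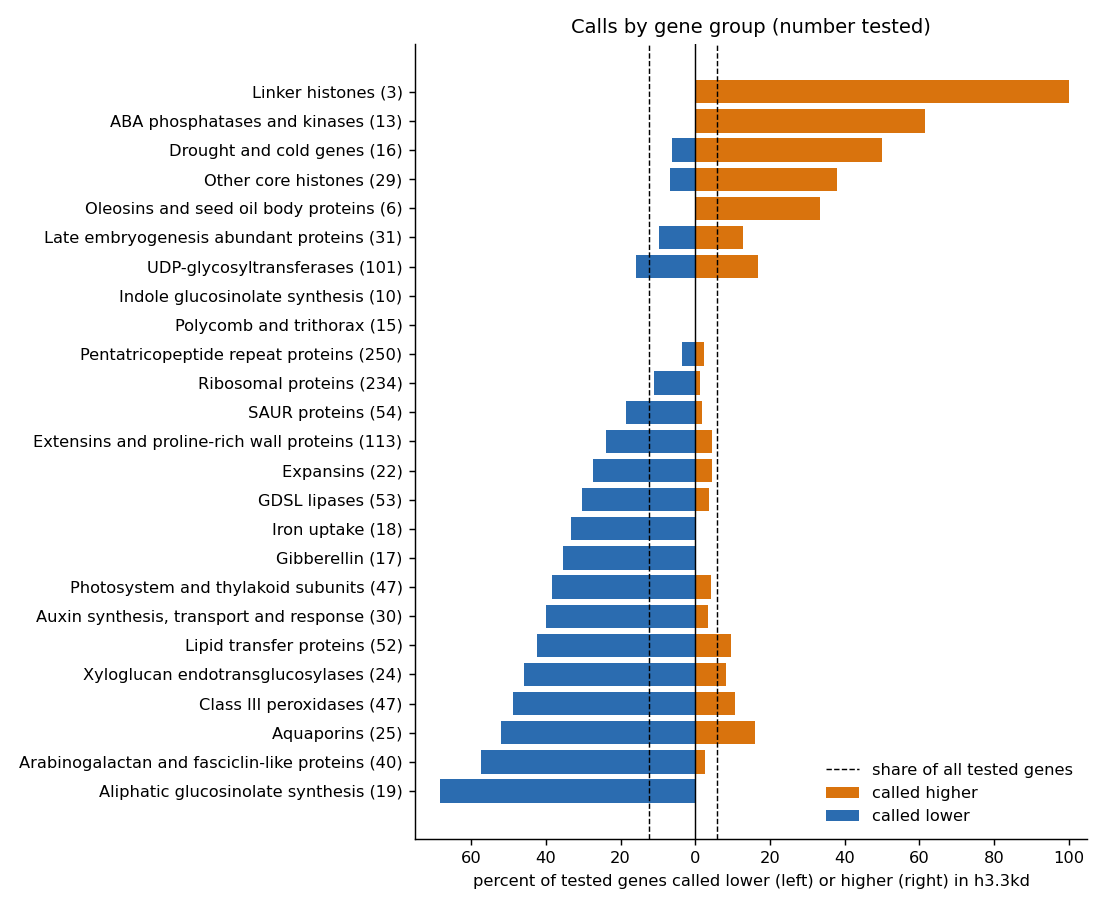
Percent of tested members called higher (right, orange) and lower (left, blue) in h3.3kd against Col for 25 gene groups, with the number tested beside each name and dashed lines at the shares over all tested genes, 5.73% higher and 12.3% lower. Arabinogalactan and fasciclin-like proteins, aliphatic glucosinolate genes and xyloglucan endotransglucosylases extend far past the lower line, and linker histone and ABA phosphatase groups past the higher one.

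Aquaporins carry water across membranes. Of 25 tested, 13 fell (52.0%) and 4 rose (16.0%). The largest falls were of tonoplast channels. TIP2;2 (AT4G17340) stood at 208, 215 and 256 TPM in Col and 55, 54.7 and 69.2 TPM in h3.3kd (log2 fold change -1.91 ± 0.15, adjusted p = 3.2e-06) and TIP2;3 (AT5G47450) at 95, 73 and 88.4 TPM in Col and 9.74, 16.5 and 16.7 TPM in h3.3kd (-2.53 ± 0.22, adjusted p = 6.8e-06). GAMMA-TIP (AT2G36830), the vacuolar channel of elongating cells, stood at 756, 996 and 936 TPM in Col and 327, 418 and 467 TPM in h3.3kd (-1.15 ± 0.15, adjusted p = 1.5e-04). Each was lower in all knockdown libraries, while the seed channel BETA-TIP rose as given above. In the plasma membrane class changes were smaller, as for PIP2;4 (AT5G60660) (-0.96 ± 0.19, adjusted p = 0.0032). Lower ones numbered 8 after median-ratio rescaling and 7 in the fit of the 6 libraries alone, and higher ones 1 in the fit of the 6 libraries alone and 2 with the replicate block in those 6.

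In the gibberellin and auxin lists, more genes were lower than higher. Of 17 gibberellin genes, 6 fell (35.3%) and 0 rose. GA3OX1 (AT1G15550), which makes the active hormone, stood at 5.63, 4.48 and 4.45 TPM in Col and 0, 0.188 and 0.605 TPM in h3.3kd (log2 fold change -2.23 ± 0.25, adjusted p = 6.1e-05), and GA2OX6 (AT1G02400), which destroys it, at 11.3, 10.4 and 9.64 TPM in Col and 3.26, 3.69 and 2.19 TPM in h3.3kd (-1.52 ± 0.23, adjusted p = 5.3e-04). Synthesis and breakdown genes were therefore both lower, without overlap. The gibberellin-responsive peptide gene GASA6 (AT1G74670) stood at 569, 463 and 403 TPM in Col and 91.6, 148 and 72.2 TPM in h3.3kd (-2.24 ± 0.22, adjusted p = 2.0e-05).

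Of 30 auxin genes, 12 fell (40.0%) and 1 rose (3.33%), and the number lower was 6 in the fit of the 6 libraries alone. IAA6 (AT1G52830), a repressor that auxin induces, stood at 6.05, 3.77 and 3.65 TPM in Col and 0.781, 0 and 0 TPM in h3.3kd (log2 fold change -2.15 ± 0.27, adjusted p = 1.3e-04), and the efflux carrier PIN4 (AT2G01420) at 105, 98.4 and 90.8 TPM in Col and 52.1, 59.1 and 45.5 TPM in h3.3kd (-0.90 ± 0.13, adjusted p = 3.8e-04). The h3.3kd range lay below that of Col for both. Of 54 SAUR genes, which promote cell expansion after auxin, 10 fell (18.5%) and 1 rose, and 4 of the 10 met the filter only through Col libraries. Lower SAUR genes numbered 6 among genes at 1 TPM or more in all 6 libraries and 5 among genes with a mean of 5 TPM or more. AT3G53250 stood at 29.2, 32.7 and 29.7 TPM in Col and 1.82, 0.818 and 4.79 TPM in h3.3kd (-3.35 ± 0.39, adjusted p = 7.7e-05). Among brassinosteroid genes 3 rose and 5 fell of 16, with PAR2 (AT3G58850) (-1.61) and BRS1 (AT4G30610) (-1.30) lower, and higher ones numbered 0 in the fit of the 6 libraries alone and 1 without Col 2. Of 14 ethylene genes, 2 rose and 5 fell, and lower ones numbered 2 among genes with a mean of 5 TPM or more, after quantile normalization and in the fit of the 6 libraries alone and 3 without Col 2. The synthase ACS8 (AT4G37770) fell (-2.36 ± 0.28, adjusted p = 9.1e-05).

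Root genes were lower where they moved. Of 18 iron genes 6 fell (33.3%) and 0 rose, and 3 of the 6 met the filter only through Col libraries. The transporter IRT1 (AT4G19690) stood at 25.5, 29 and 30.7 TPM in Col and 4.21, 14.5 and 11.8 TPM in h3.3kd (log2 fold change -1.53 ± 0.32, adjusted p = 0.005), and its regulator FRU (AT2G28160) at 11.5, 4.65 and 7.57 TPM in Col and 0.946, 1.66 and 3.92 TPM in h3.3kd (-1.52 ± 0.35, adjusted p = 0.0081). Lower ones numbered 3 among genes at 1 TPM or more in all 6 libraries, with the replicate block in those 6 and without Col 1, Col 3 or h3.3kd 1 and 2 in the fit of the 6 libraries alone. Of 18 genes of the Casparian strip and suberin, the barriers of the root endodermis, 4 fell and 0 rose, and the alcohol-forming reductase FAR1 (AT5G22500) stood at 48.4, 37.9 and 23.8 TPM in Col and 8.0, 11.6 and 6.50 TPM in h3.3kd (-1.94 ± 0.25, adjusted p = 1.7e-04). For these, the number lower was 2 in the fit of the 6 libraries alone and without Col 3 and 7 without h3.3kd 3.

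Cell type markers share genes with these groups, such as IRT1 with the iron list, so a like direction is partly given by the lists. Of 23 root markers deposited, 22 were tested, and 5 were called lower and 0 higher, where 12.3% of all tested genes were lower. The 9 of root hairs had a median of -0.72, with a summed level of 119 to 192 TPM in Col and 38.5 to 122 in h3.3kd, and 0 were called. The 10 of the stele and endodermis had a median of -0.80, with sums of 176.0 to 217 and 94.8 to 188 TPM, and 3 were lower. The 4 of the epidermis and cortex, 3 of them tested, had sums of 70.5 to 77.9 and 21.3 to 60.2 TPM, and 2 were lower. Guard cell markers had sums of 56.5 to 70.1 and 33.6 to 45.4 TPM, with 2 of 5 lower. Markers of leaf photosynthetic cells had sums of 20535 to 29737 and 24541 to 35235 TPM, with 2 of 5 higher and 2 lower. None of these lists had a marker listed at 0 in every library of a genotype. The library h3.3kd 1 had the lowest sum for each root list. The part of these markers in the lower levels of wall, aquaporin and iron genes was not tested. Seed and embryo markers, 5 of 10 tested, had sums of 7.92 to 12.3 TPM in Col and 44.4 to 83.1 TPM in h3.3kd, with 3 higher and 0 lower, and CRU2, SESA3 and LEC2 were listed at 0 in Col. The 3 higher, CRA1, CRC and OLEO1, are the storage and oil body genes given above and met the filter only through h3.3kd libraries. Of 4 meristem markers 2 were tested and 1 was lower, with sums of 19.0 to 22.9 and 15.5 to 29.2 TPM, and WUS was listed at 0 throughout. The 5 flower and pollen markers, none tested, had sums of 1.04 to 1.57 and 0.511 to 0.788 TPM.

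Nuclear photosynthesis genes leaned down. Of 47 photosystem and thylakoid genes, 18 fell and 2 rose (median -0.36), and the count of lower ones was 5 after median-ratio rescaling and in the fit of the 6 libraries alone and 11 without both Col 1 and h3.3kd 2 and without h3.3kd 3. PSAH2 (AT1G52230) of photosystem I stood at 785, 560.3 and 487 TPM in Col and 369.9, 261 and 286 TPM in h3.3kd (log2 fold change -0.98 ± 0.17, adjusted p = 0.0016). Within the antenna of photosystem II the families differed in direction. LHCB2.2 (AT2G05070) stood at 109.5, 70.9 and 64.4 TPM in Col and 52.6, 29.8 and 30.2 TPM in h3.3kd (-1.11 ± 0.23, adjusted p = 0.0043) and LHCB2.3 (AT3G27690) at 14.2, 8.80 and 7.94 TPM in Col and 3.55, 1.54 and 1.63 TPM in h3.3kd (-1.82 ± 0.29, adjusted p = 9.8e-04). The LHCB1 genes LHB1B2 (AT2G34420), at 4616, 6416 and 7106 TPM in Col and 20276, 8267 and 13133 TPM in h3.3kd (1.13 ± 0.27, adjusted p = 0.011), and CAB3 (AT1G29910), at 2903, 5323 and 3415 TPM in Col and 11188, 5671 and 5511 TPM in h3.3kd (0.91 ± 0.27, adjusted p = 0.03), were higher. The LHB1B2 call ended at 0.29 after quantile normalization, 0.063 in the fit of the 6 libraries alone, and the CAB3 call at 0.065 with no filter, 0.054 after median-ratio rescaling, 0.11 in the fit of the 6 libraries alone, 0.11 without Col 1, 0.082 without Col 3, 0.11 without h3.3kd 1. Both families have near-identical copies, between which reads may have been split.

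Transcripts of the organelles were higher. Of 74 tested chloroplast genes 27 rose and 0 fell, and of 26 mitochondrial genes 8 rose and 0 fell, against 4.96% to 6.05% higher on the 5 nuclear chromosomes. Chloroplast genes made up 0.171%, 0.242% and 0.179% of TPM in Col and 0.347%, 0.587% and 0.244% in h3.3kd, mitochondrial ones 0.0155%, 0.0167% and 0.00946% and 0.0410%, 0.0323% and 0.0177%. The library h3.3kd 2 held the most chloroplast transcript and h3.3kd 3 barely more than Col 2. The chloroplast genes that rose numbered 12 without h3.3kd 2, 10 without Col 1, 15 without Col 3 and 8 without both Col 1 and h3.3kd 2. They numbered 11 in the fit of the 6 libraries alone and 1 against the 1.5-fold minimum. Mitochondrial genes that rose numbered 5 without Col 1, without Col 3 or in the 6 libraries alone, and 0 against the minimum. ATCG00020 stood at 23.1, 73.6 and 53.6 TPM in Col and 384, 426 and 105 TPM in h3.3kd (log2 fold change 2.49 ± 0.48, adjusted p = 0.0031), and ATMG01370 at 10.9, 15.4 and 14.1 TPM in Col and 27.4, 66.6 and 31.7 TPM in h3.3kd (1.47 ± 0.33, adjusted p = 0.0075). Few organelle transcripts carry the poly(A) tail that many library kits select for, and the labels do not say whether RNA was selected so here.

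Larger enzyme and regulator families moved less evenly. Of 101 UDP-glycosyltransferases, 17 rose (16.8%) and 16 fell (15.8%), and higher ones numbered 5 in the fit of the 6 libraries alone and 10 without Col 2. Lower ones numbered 10 after quantile normalization and 5 in the fit of the 6 libraries alone. AT4G09500 stood at 6.82, 8.30 and 8.40 TPM in Col and 27.9, 31.8 and 31.5 TPM in h3.3kd (log2 fold change 1.83 ± 0.20, adjusted p = 4.9e-05), and UGT78D1 (AT1G30530), which puts rhamnose on flavonols, at 32.6, 40.4 and 32.9 TPM in Col and 64.3, 72.5 and 60.7 TPM in h3.3kd (0.88 ± 0.13, adjusted p = 6.0e-04). Those that fell included UGT85A2 (AT1G22360) (-1.01 ± 0.16, adjusted p = 8.9e-04). Of 34 glutathione transferases 10 fell and 1 rose, and lower ones numbered 6 in the fit of the 6 libraries alone and 5 without Col 1. Of 67 MYB factors 17 fell (25.4%) and 2 rose, and 9 of the 17 met the filter only through Col libraries. Lower ones numbered 8 among genes at 1 TPM or more in all 6 libraries and in the fit of the 6 libraries alone, 7 among genes with a mean of 5 TPM or more, 9 after quantile normalization, 11 with the replicate block in those 6 and 10 without Col 1. MYB0 (AT3G27920), the trichome regulator GLABRA1, stood at 3.44, 3.46 and 2.13 TPM in Col and 0.337, 0 and 0.473 TPM in h3.3kd (-1.66 ± 0.29, adjusted p = 0.0015). Of 234 ribosomal protein genes 26 fell (11.1%, under the 12.3% of all genes) and 3 rose (1.28%). The number lower was 7 after median-ratio rescaling and without Col 1, 3 in the fit of the 6 libraries alone, 12 with no intensity trend, 17 with array weights, 16 without Col 2, 14 without h3.3kd 2 or h3.3kd 3 and 11 without both Col 1 and h3.3kd 2, and the number higher 8 after median-ratio rescaling, 1 in the fit of the 6 libraries alone, 10 with array weights, 5 without Col 2 or h3.3kd 2 and 11 without both Col 1 and h3.3kd 2.

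Among other groups, several held a smaller share of calls than all genes did. Of 250 pentatricopeptide repeat genes, which process organelle RNA, 6 rose (2.4%) and 9 fell (3.6%). Higher ones numbered 12 after median-ratio rescaling, 22 after quantile normalization, 2 in the fit of the 6 libraries alone and 3 with the replicate block in those 6 and without Col 1, Col 2, h2a.z 1, h2a.z 2, h3.3kd;h2a.z 1, h3.3kd;h2a.z 2 or h3.3kd;h2a.z 3. Lower ones numbered 3 among genes with a mean of 5 TPM or more and with the replicate block in those 6, 4 after quantile normalization, 2 in the fit of the 6 libraries alone, 30 with array weights, 5 without Col 3, 27 without h3.3kd 2 and 26 without both Col 1 and h3.3kd 2. Of 105 immune receptor genes 3 rose and 6 fell, and lower ones numbered 3 among genes at 1 TPM or more in all 6 libraries, 1 among genes with a mean of 5 TPM or more, 10 with no intensity trend, 27 with array weights, 24 without h3.3kd 2 and 25 without both Col 1 and h3.3kd 2. Higher ones numbered 6 after median-ratio rescaling and without h3.3kd 1, 10 after quantile normalization, 1 in the fit of the 6 libraries alone and 5 with the replicate block in all 12 and with array weights. Of 15 Polycomb and Trithorax genes, which keep or lift silencing of seed and floral programs, 0 rose and 0 fell by limma, with a median of -0.18. Lower ones numbered 4 with array weights, 3 without h3.3kd 2 and 2 without both Col 1 and h3.3kd 2. Of 166 F-box proteins, which choose targets for degradation, 14 rose (8.43%, against 5.73% of all genes) and 12 fell (7.23%). Higher ones numbered 9 among genes with a mean of 5 TPM or more and without Col 2, 23 after quantile normalization and 6 in the fit of the 6 libraries alone, and lower ones 7 among genes at 1 TPM or more in all 6 libraries, among genes with a mean of 5 TPM or more, with the replicate block in those 6 and without Col 1, 5 after quantile normalization and in the fit of the 6 libraries alone, 20 with array weights and 21 without h3.3kd 2. Of 46 WRKY factors, regulators of defence, 1 rose and 8 fell, and the lower share of 17.4% was above the 12.3% of all genes. Of those 8, 5 met the filter only through Col libraries, and lower ones numbered 3 among genes at 1 TPM or more in all 6 libraries and among genes with a mean of 5 TPM or more, 5 after quantile normalization, with the replicate block in those 6 and without Col 1 and 4 in the fit of the 6 libraries alone and without Col 3 or h3.3kd 1.

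Some transcripts were present in 1 genotype and listed at 0 or near it in the other. AT3G05727, annotated as a member of a pollen coat protein family, stood at 528, 354 and 215 TPM in Col and 5.17, 3.09 and 0 TPM in h3.3kd (log2 fold change -6.87 ± 0.52, adjusted p = 2.9e-06), the largest fall of any called gene. PR5 (AT1G75040), a pathogenesis-related protein, stood at 3.43, 4.10 and 3.65 TPM in Col and 0, 0 and 0 TPM in h3.3kd (adjusted p = 8.7e-05). RTFL1 (AT3G53232), a small peptide of the ROTUNDIFOLIA family, stood at 5.93, 3.47 and 4.46 TPM in Col and 0, 0 and 0 TPM in h3.3kd, and AT5G42280, a C1-domain protein, at 2.34, 5.48 and 4.40 TPM in Col and 0, 0 and 0 TPM in h3.3kd. These 3 were listed at 0 in every knockdown library. MRD1 (AT1G53480) was the reverse, at 0, 0 and 0 TPM in Col and 2.57, 4.55 and 3.23 TPM in h3.3kd. Genes with no described function were among the large changes too, such as AT3G29633, at 0.211, 0.242 and 0.211 TPM in Col and 11.9, 12.2 and 18.3 TPM in h3.3kd (3.61 ± 0.26, adjusted p = 1.9e-06), and AT1G75945, at 23.6, 10.6 and 12.3 TPM in Col and 0.152, 0 and 0.160 TPM in h3.3kd (-3.83 ± 0.27, adjusted p = 1.9e-06).

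The remaining genes among the 15 largest changes in each direction covered other families. Lower were the lipid transfer family members AT5G48490 (-3.57), AT1G62510 (-3.04) and AZI1 (AT4G12470) (-3.19), of which AZI1 is known from systemic immunity. Also lower were AT2G32870, a TRAF-like protein (-3.52), AT5G38940, a germin-like cupin (-3.12), AT4G11410, a dehydrogenase-like protein (-3.04), and AT5G03120 (-3.09). Higher were AT2G37870 of the lipid transfer family (2.72), AT5G63350 (2.61), AT1G68250 (2.55) and AT2G05915 (2.53). AT4G09355 was higher as well (3.54), but its call ended in 7 of the other settings, and Col 1 stood at 7.99 TPM beside 0 in the other Col libraries.

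Called genes neighboured each other somewhat more often than the shares of all genes. The next tested gene along the chromosome was also higher for 9.10% of genes called higher, where 5.57% of all tested nuclear genes were. It was also lower for 15.6% of genes called lower, where 12.4% were. Genes not tested were skipped, here and in the run below. Neighbours can be tandem copies. The longest run of higher genes was 5 on chromosome 1, AT1G09480 (1.15), AT1G09490 (0.61), AT1G09500 (2.30), AT1G09520 (0.65) and PIF3 (AT1G09530) (0.68), the last a phytochrome-interacting factor. The calls of AT1G09490, AT1G09520 and PIF3 ended in the fit of the 6 libraries alone. AT1G09480 and AT1G09500 stayed called there, but AT1G09490 lies between them, so no run is left.

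The same knockdown was made in plants without normal H2A.Z, and that comparison, h3.3kd;h2a.z against h2a.z, shares no library with the one above. H2A.Z transcripts were not constant within either comparison. Of 3 H2A.Z genes, 1 fell and 0 rose in h3.3kd against Col, and 0 fell in the fit of those 6 libraries alone. In h3.3kd;h2a.z against h2a.z, HTA9 (AT1G52740) was higher (log2 fold change 1.41 ± 0.22, adjusted p = 3.3e-04). In that second comparison 1018 genes were higher, 5.40%, and 3222 lower, 17.1%. Of the 1079 genes higher in h3.3kd against Col, 87.7% were above 0 in the second background, against 37.4% of all tested genes, and 40.3% were called higher. Of the 2318 lower genes, 94.7% were below 0, against 62.6% of all, and 61.6% were called lower. Across the 18847 tested genes the fold changes of the 2 comparisons had a Pearson correlation of 0.645, which is across genes and not across replicates. The interaction, the H3.3 effect with H2A.Z lost minus that with H2A.Z present, was called for 290 genes, 1.54%, with 2354 at an unadjusted p under 0.05. Fitted on their own 6 libraries, h3.3kd;h2a.z and h2a.z gave 2089 higher and 5144 lower. The number higher was 573 to 676 when h2a.z 2, h2a.z 3 or any h3.3kd;h2a.z library was left out. Interaction calls numbered 155 to 191 when Col 2, h3.3kd 3, h2a.z 2 or 3, or h3.3kd;h2a.z 1 or 3 was left out, and 507 when h3.3kd 1 was.

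Several of the falls recurred. MYB28 stood at 40.0, 35.1 and 31.2 TPM in h2a.z and 4.42, 5.51 and 4.69 TPM in h3.3kd;h2a.z (-2.63 ± 0.20, adjusted p = 6.3e-07), FLA13 at 128, 137 and 132 TPM in h2a.z and 16.9, 16.2 and 18.2 TPM in h3.3kd;h2a.z (-2.88 ± 0.13, adjusted p = 9.8e-09) and TIP2;3 at 28.6, 28.8 and 24.1 TPM in h2a.z and 5.49, 3.24 and 5.51 TPM in h3.3kd;h2a.z (-2.32 ± 0.22, adjusted p = 5.5e-06). Both glucosinolate branches were lower in the second background, the aliphatic one more so, while 0 indole genes were called in h3.3kd against Col. Of 19 aliphatic genes 17 were lower there (median -2.61), and of 10 indole genes 9 (median -0.78). SUR1 (-1.04 ± 0.15, adjusted p = 1.8e-04), UGT74B1 (-0.69 ± 0.14, adjusted p = 0.0029) and SOT17 (-0.87 ± 0.17, adjusted p = 0.0022) were lower too. The interactions of these 3 genes were not called (adjusted p = 0.14, 0.081 and 0.074). Linker histone HIS1-3 rose there as well, at 31.4, 18.8 and 28.1 TPM in h2a.z and 756, 625 and 714 TPM in h3.3kd;h2a.z (4.72 ± 0.28, adjusted p = 8.6e-08), and so did the H4 gene AT3G53730 (2.36 ± 0.17, adjusted p = 5.4e-07). Of the seed storage genes, CRC stood at 46.5, 15.4 and 50.7 TPM in h2a.z and 154, 63.9 and 54.4 TPM in h3.3kd;h2a.z (1.26 ± 0.43, adjusted p = 0.045) and CRA1 at 101, 25.8 and 106 TPM in h2a.z and 235, 103 and 138 TPM in h3.3kd;h2a.z (1.18 ± 0.47, adjusted p = 0.09), so both were already present in h2a.z. The interaction was called for CRC (adjusted p = 0.012) but not for CRA1 (adjusted p = 0.051), PAP85 (0.24), SESA5 (0.55) or SESA2 (0.97). SESA2 (2.26 ± 0.68, adjusted p = 0.028), ECP63 (1.82 ± 0.48, adjusted p = 0.014) and AT1G04560 (1.31 ± 0.44, adjusted p = 0.046) were called higher in the second background too. Of the ABA phosphatases, HAI2 passed there (1.14 ± 0.34, adjusted p = 0.026). HAI1 (-0.20 ± 0.29, adjusted p = 0.69) and ABI2 (0.13 ± 0.18, adjusted p = 0.66) did not pass in that background, but their interactions were not called either (adjusted p = 0.087 and 0.13). Of 13 ABA core genes, 1 was higher there and 0 lower (median 0.12). Of 16 drought and cold genes, 3 were higher and 1 lower (median -0.02). Of 47 photosystem and thylakoid genes, 2 were higher and 3 lower (median -0.02). By contrast, 17 of 40 arabinogalactan and fasciclin-like proteins and 32 of 47 class III peroxidases were lower. Differences of groups between the backgrounds were not tested.

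**Figure D4:**
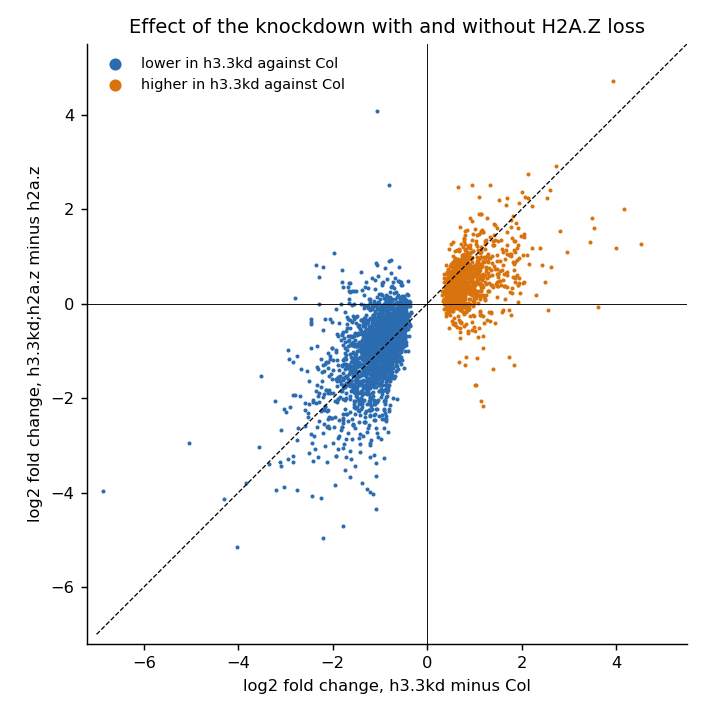
Log2 fold change of h3.3kd;h2a.z minus h2a.z (y axis) against that of h3.3kd minus Col (x axis) for the 3397 genes called in the latter, orange where higher and blue where lower, with the diagonal dashed. Most lower genes lie below 0 on the y axis, 94.7% against 62.6% of all tested genes, and 87.7% of higher genes lie above it, against 37.4% of all.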

How the data were processed

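The deposited table gives TPM per gene for 12 seedling libraries, 3 for each of 4 genotypes. TPM was computed by the authors, and each deposited column sums to 1000000. The submitters' processing notes name fastp 0.20.1, HISAT2, HTSeq 0.11.2, DESeq2 1.26.0 and the build TAIR10. The labels give neither the gene lengths used nor how shared reads were counted. Symbols and products came from RefSeq TAIR10.1, which matched 23235 of 23387 genes.

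Genes at 1 TPM or more in at least 3 of the 6 Col and h3.3kd libraries were fitted as log2(TPM + 1) with limma 3.58.1 (R 4.3.3, trended eBayes, 12 libraries, 1 mean per genotype). P-values were adjusted over all 18847 genes by Benjamini-Hochberg and called under 0.05. Other lists also hold lower members that met the filter only through Col libraries, such as 5 of 19 pectin methylesterases and inhibitors. For lipid transfer proteins it was 4 of 22 and for GDSL lipases 4 of 16. Such counts are not independent of the filter. On data simulated for this comparison, 70% of 2-fold and 95% of 4-fold changes were recovered, and 53% and 95% with the 6 libraries alone. The simulation gave each gene the same normal spread in all genotypes and changed only genes above about 5 TPM in Col. Col and h3.3kd libraries vary more than the others and many called genes are lower, so these shares may be too high for the real data. Libraries with the same number deviated together (r = 0.332, 0.237 and 0.13 for numbers 1, 2 and 3 of Col and h3.3kd). Pairs of unlike number ran from -0.283 to 0.125, the highest being Col 3 with h3.3kd 2, so number 3 is not set apart. No label gives a pairing. The main fit did not use it, and a fit with the replicate number as a block was run beside it.

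Genes and gene lists were chosen with earlier results of these data known. The text names HTR4, HTR5 and HTR8, up to 15 genes with the largest changes each way (at least 5 TPM in the higher genotype, no overlap, called also in the fit of the 6 libraries alone), up to 4 called members each way per group by smallest adjusted p, and genes at 0 in every library of 1 genotype and at least 2 TPM in each of the other. Named after their values were seen were ABI3, LEC2, VAL1, SESA2, MYB29, MAM1, CYP79F1, SUR1, UGT74B1, SOT17, HTA7, HTA9, AT3G45930, the organelle genes and the 5 neighbours on chromosome 1. Alternatives changed the pseudocount, filter, scaling, libraries and eBayes settings.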

Additional observations from a re-analysis of the deposited data

Results flagged for a closer look

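For the genes below, the effect of the H3.3 knockdown differed between plants with and without H2A.Z loss by limma's interaction term, given as the log2 fold change of h3.3kd;h2a.z minus h2a.z less that of h3.3kd minus Col. The adjusted p is over all 18847 tested genes.

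CRC rose less without H2A.Z, by an interaction of -3.26, adjusted p = 0.012. The H2B gene AT3G53650 stood at 17.1, 19.7 and 18.2 TPM in h2a.z and 15.9, 15.4 and 19 TPM in h3.3kd;h2a.z, and its interaction was -1.86, adjusted p = 0.0018. It was thus at its h3.3kd level in both genotypes without H2A.Z. AT3G29633 stood at 0, 0.549 and 0 TPM in h2a.z and 0, 0 and 0.348 TPM in h3.3kd;h2a.z (interaction -3.67, adjusted p = 1.0e-04), and AT1G68250 had an interaction of -2.70, adjusted p = 0.0098. AT1G09500, in the run of neighbours on chromosome 1, had an interaction of -2.12, adjusted p = 5.1e-04. The H2A.Z gene HTA9 had an interaction of 1.71, adjusted p = 0.01.

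Both genes of glucosinolate breakdown named above differed, in opposite directions. TGG2 stood at 4.48, 4.85 and 4.72 TPM in h2a.z and 11.1, 9.64 and 7.05 TPM in h3.3kd;h2a.z (interaction 3.19, adjusted p = 1.3e-04), already low in h2a.z. ESM1 stood at 12.3, 16 and 15.7 TPM in h2a.z and 0.447, 0.786 and 0.676 TPM in h3.3kd;h2a.z (interaction -2.34, adjusted p = 6.2e-05), a further fall. PR5 stood at 15, 25.4 and 23.6 TPM in h2a.z and 0.810, 0 and 0.0874 TPM in h3.3kd;h2a.z (interaction -1.88, adjusted p = 0.02). AT5G42280 was listed at 0 in all 6 libraries without H2A.Z (interaction 2.29, adjusted p = 0.0058). MYB0 stood at 0.693, 1.23 and 0.569 TPM in h2a.z and 0.938, 1.19 and 2.41 TPM in h3.3kd;h2a.z (interaction 2.09, adjusted p = 0.017), and AT2G32870 fell less (interaction 2.0, adjusted p = 0.0065). No explanation of these differences was tested.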

How the results depend on the processing

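The number of genes higher in h3.3kd was 1079. It was 1743 after median-ratio rescaling, 1704 after quantile normalization, 1685 with array weights, 363 in the fit of the 6 libraries alone and 83 against a 1.5-fold minimum, and it ran from 718 to 1359 with 1 library left out. The number lower, 2318, was 1499 after quantile normalization, 3707 with array weights, 920 in the fit of the 6 libraries and 267 against the minimum, and it ran from 1461 to 3387 with 1 library left out. The share of calls that were higher, 31.8%, was 48.8% after median-ratio rescaling and 53.2% after quantile normalization. For h3.3kd;h2a.z against h2a.z, the fit of those 6 libraries gave 2089 higher and 5144 lower, and leaving 1 out gave 573 to 762 higher. Interaction calls ran from 155 to 507. The replicate block gave 812 higher and 1638 lower in the 6 libraries and 1116 and 2451 in all 12. Beside the counts given with their groups, it ended the calls of HON1, AT1G09490 and PIF3 among named genes. Of 121 named genes, 111 kept their side of the threshold in every setting that tested them, other than that minimum. None changed direction with a call. Genes that a filter removed were not retested there, such as CRC and PR5 at 1 TPM or more in all 6 libraries. The cause of these shifts was not tested. TPM keeps no depth, so no counting error could be given, and low genes carry the least certain values.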
